A study of Mus musculus with 2 samples.

Results

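The cytosolic ribosomal protein genes were examined in polyadenylated RNA of MEL cells, an immortalized mouse erythroleukemia line whose cells resemble red blood cell precursors. Members were the protein-coding genes whose symbols mark a protein of the large (Rpl, Rplp) or small (Rps, Rpsa) cytosolic subunit, with the Rps6k kinases, Rps19bp1 and symbols holding "-ps" left out, which gave 85 of 43346 measured genes. They comprised 77 core genes, 31 of the 40S and 46 of the 60S subunit, and 8 paralogs, and 19 of the core genes are those linked in humans to Diamond-Blackfan anemia, an inherited failure of red cell production. The study holds 1 group of untreated MEL cells with 2 libraries, labelled biological replicates 1 and 2, each from single-end sequencing. The labels do not say that the replicates came from separate cultures, so the spread between them may be technical. With 1 group no condition was compared with another, and the only contrast is replicate 1 over replicate 2.

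Each eukaryotic ribosome carries a single copy of most of its proteins, so their genes are known for high and coordinated output, and their mRNAs typically begin with a 5′ terminal oligopyrimidine tract, a run of C and T bases that starts at C and places translation under mTOR and Larp1. Erythroid precursors must translate globin in bulk and are sensitive to a shortage of ribosomal proteins, which underlies Diamond-Blackfan anemia. Mammalian genomes also hold many processed copies of these genes, made by reverse transcription of their mRNAs, so a short read from a coding sequence can match several places.

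Gene-level expected counts, which are reads divided by a model among the places they match, summed to 67735380 in replicate 1 and 79923143 in replicate 2. For a gene at 0 the limit is 3 counts, or 4.43e-06% of the sum in replicate 1 and 3.75e-06% in replicate 2. This limit and the counting SEs given with ratios cover counting error alone. Levels are in TPM, the relative number of transcripts corrected for length. All 8 erythroid markers reached at least 1 TPM in both replicates, with a summed level of 4392 and 6164 TPM. None of 7 markers of other blood lineages and none of 4 non-hematopoietic markers did. Cd3e, Irf8 and Alb were listed at 0 in both libraries. The erythroid markers Gata1, Epor and Hba-a1 were called lower in replicate 1 by the binomial test described with the replicates, as were 7.63% of all genes. The part of these markers in the differences between replicates given below was not tested. In bulk RNA, fewer cells and less RNA per cell cannot be told apart.

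The sequences that bear most on the levels are those of genes that cannot be separated by their coding bases. Rps27 on chromosome 3, Rps27rt on chromosome 9 and Rps27l on chromosome 9 encode the small-subunit protein S27 and its close relatives. The first 120 coding bases of each, from the GENCODE M21 transcripts, are shown with capitals at bases that differ from Rps27.
Rps27: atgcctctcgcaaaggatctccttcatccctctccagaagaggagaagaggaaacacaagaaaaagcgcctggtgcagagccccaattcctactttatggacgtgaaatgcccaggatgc
Rps27rt: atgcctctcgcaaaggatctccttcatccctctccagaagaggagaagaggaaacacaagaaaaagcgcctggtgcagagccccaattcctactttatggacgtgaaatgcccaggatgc
Rps27l: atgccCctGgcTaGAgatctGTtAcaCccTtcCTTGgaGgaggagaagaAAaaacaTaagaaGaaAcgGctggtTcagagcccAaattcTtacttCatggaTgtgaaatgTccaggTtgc
Rps27rt matched Rps27 at every base of the whole coding sequence, whereas Rps27l differed at 28 of the 120 bases shown and at 60 over its coding sequence.

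Rpl5, which binds 5S ribosomal RNA, and Rpl10, which joins the 60S subunit late in its assembly, are each matched by a copy elsewhere in the genome. Coding bases 301 to 400 of each gene are shown with the same stretch of 2 of its copies, in which capitals mark differences from the gene.
Rpl5: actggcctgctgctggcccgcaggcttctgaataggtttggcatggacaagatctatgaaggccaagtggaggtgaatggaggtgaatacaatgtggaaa
Gm15500: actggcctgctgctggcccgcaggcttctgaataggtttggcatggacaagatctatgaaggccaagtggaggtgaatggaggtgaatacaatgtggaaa
Rpl5-ps2: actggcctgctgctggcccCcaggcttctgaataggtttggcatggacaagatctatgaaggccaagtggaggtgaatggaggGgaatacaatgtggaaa
Rpl10: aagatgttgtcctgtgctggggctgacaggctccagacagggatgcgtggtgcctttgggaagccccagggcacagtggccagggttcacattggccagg
Rpl10-ps3: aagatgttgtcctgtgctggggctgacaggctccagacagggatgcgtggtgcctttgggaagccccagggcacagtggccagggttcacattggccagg
Rpl10-ps2: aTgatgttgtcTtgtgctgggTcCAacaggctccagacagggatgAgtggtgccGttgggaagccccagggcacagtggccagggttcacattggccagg
Gm15500 and Rpl10-ps3 carried no difference from their gene in this stretch, Rpl5-ps2 carried 2 and Rpl10-ps2 carried 7. Gm15500 lies on chromosome 7 and is annotated as a transcribed processed pseudogene, and Rpl10-ps3 lies on chromosome 9 and is annotated as protein coding.

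The 85 members together held 9.86% of TPM in replicate 1 and 11.7% in replicate 2, and 4.24% and 5.27% of expected counts. The core genes were measured at high but uneven levels. Their median was 976.5 TPM in replicate 1 and 1119 TPM in replicate 2, against 0.44 and 0.50 TPM for all 21474 protein-coding genes, and core members made up 40 of the top 100 protein-coding genes by mean TPM. All 77 exceeded 1 TPM in both replicates. The mean of the replicates nevertheless spanned 146-fold between the highest and the lowest core gene, with an SD of 1.55 on the log2 scale. The 77 mitochondrial ribosomal protein genes, whose products act in mitochondria, had medians of 74.8 and 90.5 TPM. Their SD was 0.93 on the log2 scale.

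**Figure D1:**
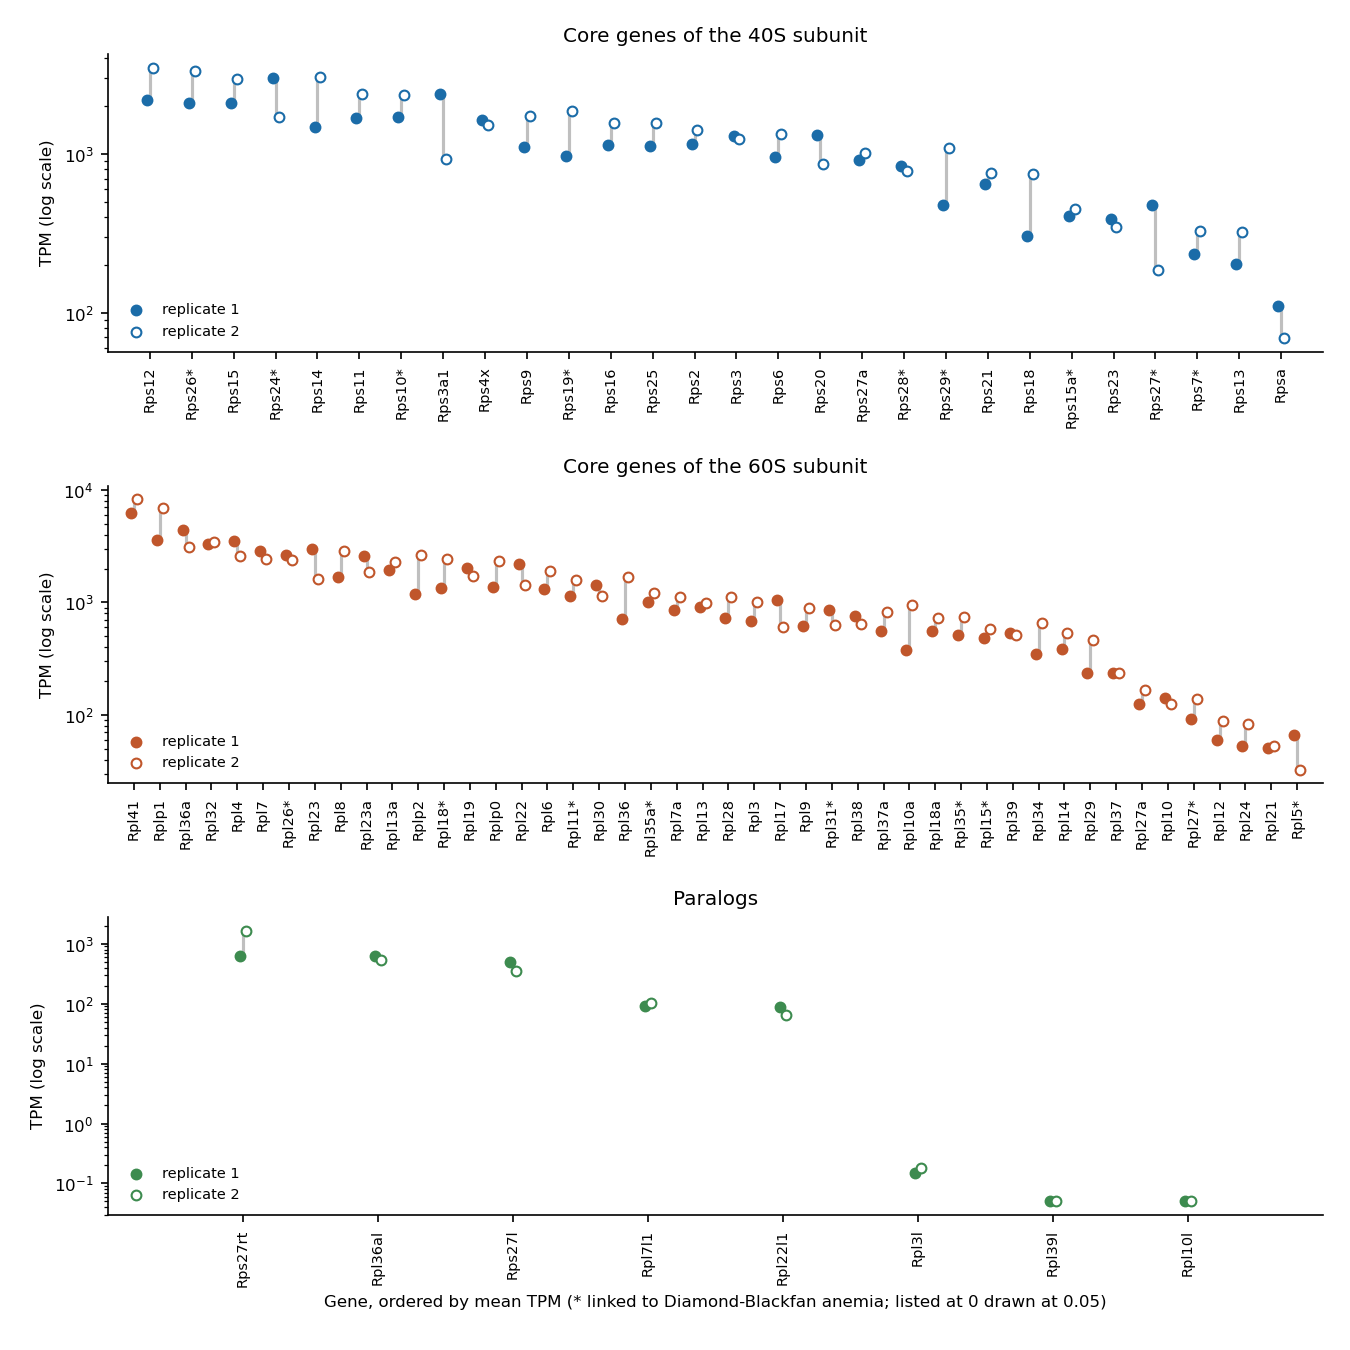
TPM of 82 of the 85 members in replicate 1 (filled) and replicate 2 (open) on a log axis, by group and ordered by mean TPM, with an asterisk at genes linked to Diamond-Blackfan anemia. Core genes ran from over 1000 TPM to under 100 TPM, and 3 of 8 paralogs stood below 1 TPM, with those listed at 0 drawn at 0.05.

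The 60S genes held both ends of the range. Rpl41, which encodes the smallest ribosomal protein, had 6184 and 8269 TPM in replicates 1 and 2. Rplp1, an acidic protein of the stalk that recruits translation factors to the ribosome, had 3580 and 6910 TPM. Rpl36a had 4412 and 3121 TPM. Rpl41 was the highest member in both libraries, and it was followed by Rpl36a in replicate 1 and by Rplp1 in replicate 2. Rpl32 had 3288 and 3417 TPM, Rpl4 had 3500 and 2564 TPM, Rpl7 had 2847 and 2429 TPM, and Rpl26 had 2657 and 2399 TPM. Of the other stalk genes, Rplp0, its base, had 1379 and 2349 TPM, and Rplp2, the partner of Rplp1, had 1195 and 2645 TPM. All 3 stalk genes were thus lower in replicate 1, by 0.94 (Rplp1), 0.85 (Rplp0) and 1.14 (Rplp2) on the log2 scale of count ratios, and of these Rplp2 alone passed the 2-fold limit used below as a single gene. Summed with the near-identical copies described below, Rplp0 passed it too, at -1.02.

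At the low end of the 60S genes, Rpl5 had 66.6 and 32.5 TPM, Rpl21 had 50.7 and 53.2 TPM, and Rpl24, which binds late in the cytoplasm, had 53.1 and 83.6 TPM. Rpl12, at the foot of the stalk, had 59.4 and 87.6 TPM. By mean TPM these 4 genes stood below the median mitochondrial ribosomal protein gene, at 85.9 TPM. Rpl27 followed with 91.7 and 139 TPM, Rpl10 with 141 and 125 TPM, Rpl27a with 124 and 167 TPM and Rpl37 with 236 and 236 TPM.

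The 40S genes had medians of 1111 and 1332 TPM, against 852.7 and 1063 TPM for the 60S genes. Rps12 had 2201 and 3500 TPM, Rps26, which lies at the mRNA exit channel, had 2083 and 3315 TPM, and Rps15 had 2103 and 2962 TPM. Rps13, with 201 and 322 TPM, and Rpsa, also known as the laminin receptor, with 110 and 69.1 TPM, were the 2 lowest. The 40S genes spanned 31.8-fold and the 60S genes 146-fold by mean TPM.

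The low values coincided with near-identical copies. A copy was a gene model outside the 85 members, annotated as a pseudogene or named with "-ps" or a Gm number, that matched at least 80% of a member's coding sequence at 90% identity or more and did not overlap that member's own locus. The overlap left out 2 models, Gm28037 at the Rpl24 locus and Gm45713 at the Rpl13a locus, each identical to the member over the matched coding bases. Another 11 protein-coding genes under other names also matched and were not counted, among them Wdr89, which matched Rplp2 and had 10.6 and 7.59 TPM. Copies were examined after the levels had been seen. Of the 77 core genes, 72 had at least 1 copy with counts, and 5, among them Rpl8, Rplp2, Rps3 and Rps9, had none. There were 695 copies, 677 of a pseudogene class, and 49 of them reached 100 TPM in both replicates. Windows of 45 bases, the read length that the deposited effective lengths imply, were compared with all other genes on either strand. A median of 43.8% of a core gene's main coding transcript was found in no other gene, with a range of 1.33% (Rps27) to 100%. Not only copies but also genes overlapping a member can share its windows.

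A gene and its copies were therefore also summed as a family. Copies held 33.1% of all core family counts in replicate 1 and 32.7% in replicate 2. In 23 families they held over 50% in both replicates, in 31 under 10% in both, and the remaining 23 lay between or differed. All 10 of the lowest core genes by mean TPM were among the 23 with over 50% on copies, as were 16 of the lowest 20, while none of the highest 20 was. A gene's own counts are part of the family total, so a low gene tends to a high share by construction. These overlaps, and the medians of the genes by share, are thus not independent of the levels. The genes themselves had medians of 236.4 and 346.5 TPM where copies held over 50%, against 1694 and 2265 TPM where copies held under 10%. As families, these groups had medians of 2134 and 2163 TPM, against 1694 and 2282 TPM.

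**Figure D2:**
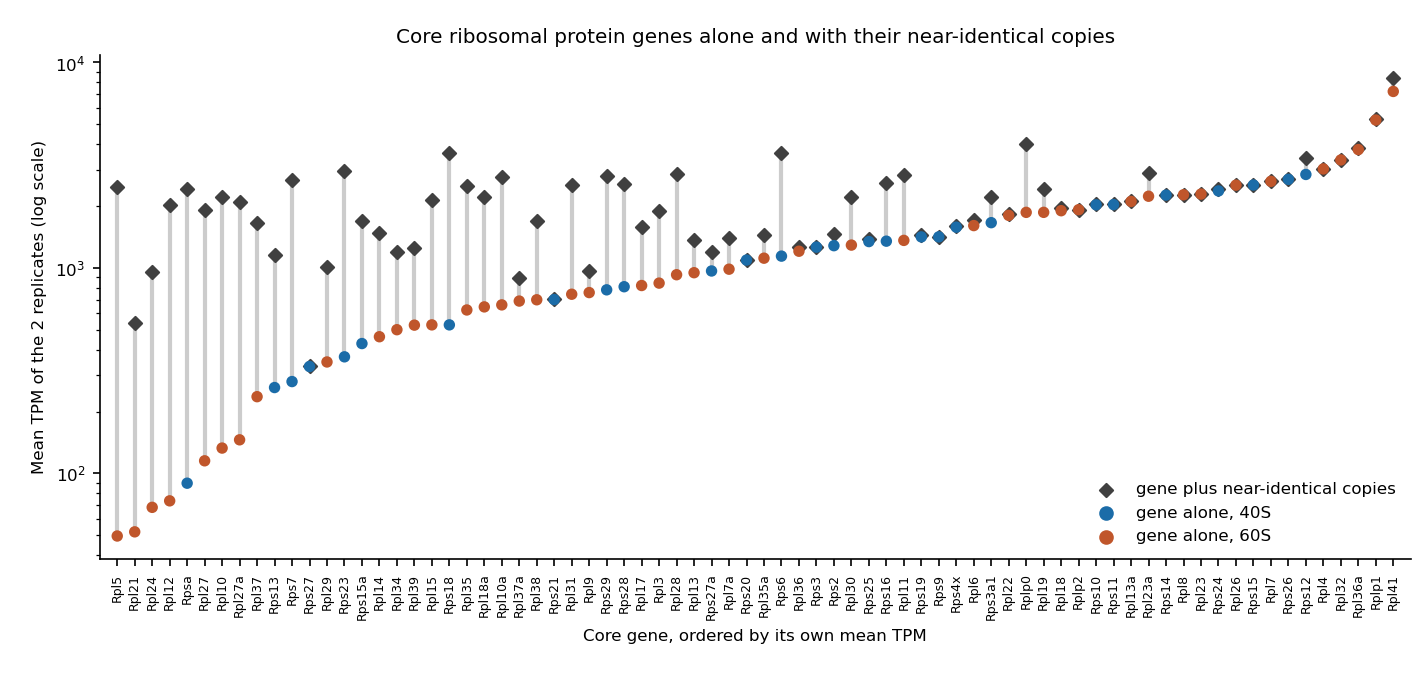
Mean TPM of the 2 replicates for 74 of the 77 core genes alone (coloured circles) and summed with its near-identical copies (dark diamonds) on a log axis, ordered by the gene's own level. The distance between the symbols is greatest at the low end, and family sums of 71 of the 77 genes reached 1000 TPM against 40 of the genes alone.

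Rpl5 shows the pattern in full. The gene received 3626 and 2162 expected counts, and its copies held 97.3% and 97.9% of the family's counts. Gm15500, the copy with an identical coding sequence, stood at 3045 and 1784 TPM. The Rpl5 family summed to 3127 and 1823 TPM. Gm15500 was identical over the matched coding bases, so the division between gene and copy is uncertain for most coding reads of Rpl5. Only 5.90% of the windows of the main Rpl5 coding transcript were found in no other gene. That value does not measure sharing with copies alone, because Fam69a overlaps Rpl5 on the other strand and can share windows too.

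Other low genes had the same form, usually with 1 copy at or near full identity. Rpl10 copies held 93.3% of the family's counts in both replicates, nearly all on Rpl10-ps3, which had 2175 and 1962 TPM. Rpl12 copies held 92.5% in both, and Rpl24 copies held 93.7% and 87.2%. Gm28037, which overlaps Rpl24 on the same strand and is in neither of these sums, had 5533 and 12513 counts, against 1304 and 2928 counts for Rpl24. With its counts added to the family total, Rpl24 copies held 73.8% and 56.3%. Rpsa copies held 88.9% and 95.9%, led by Rpsa-ps10 at 1562 and 2945 TPM, which was 99.3% identical. Among the 23 families with over 50% of counts on copies, the leading copy was at least 99% identical in 22 and fully identical in 11. It held over 90% of the counts of all copies in both replicates in 15.

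**Figure D3:**
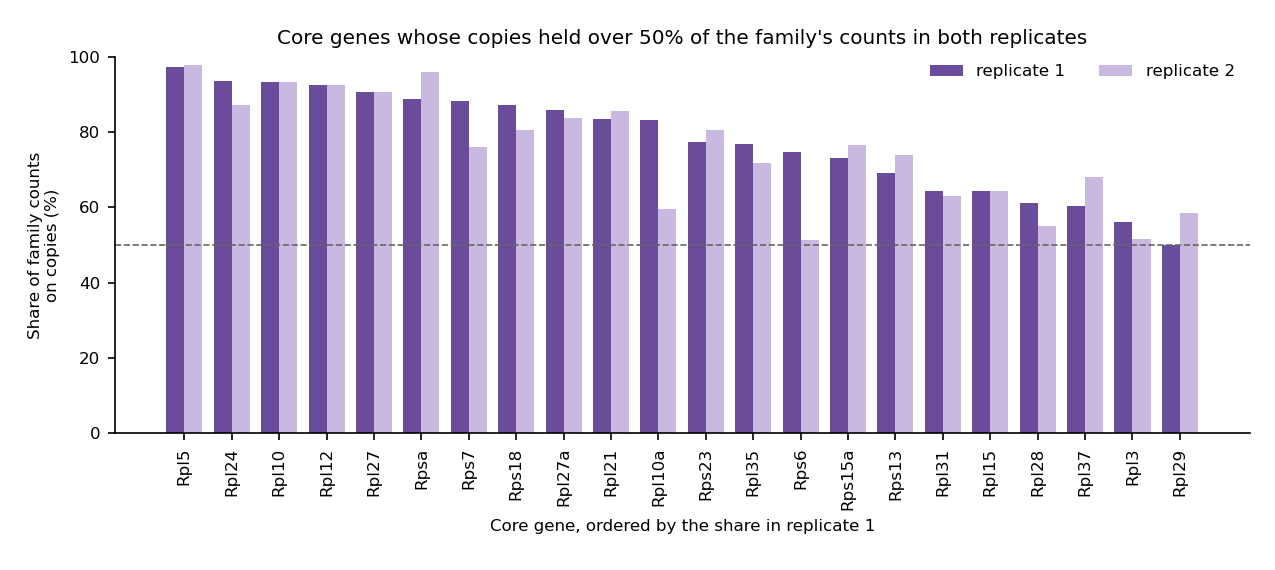
Share of each family's expected counts that was assigned to copies rather than to the gene, in replicate 1 (dark) and replicate 2 (light), for 22 of the 23 core genes above 50% (dashed line) in both replicates. Shares ran from 97.3% and 97.9% for Rpl5 to 50.1% and 58.5% for Rpl29.

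Summing families narrowed the core genes to a 25.2-fold range and an SD of 0.71 on the log2 scale. The lowest family, at a mean of 332.9 TPM, was that of Rps27. Its sum leaves out the member Rps27rt, which has the same coding sequence and a mean of 1130 TPM. Family medians were 1788 and 2145 TPM. Across the 77 core genes, which share the same libraries and annotation, Spearman's rho of mean TPM with the number of copies was -0.33 for the genes alone and -0.03 for the families. With the share of windows found in no other gene, rho was weaker, at 0.18 for the genes alone and 0.02 for the families. The order of the genes was more alike between replicates than the order of the families, with rho of 0.89 for genes and 0.61 for families. A summed family mixes the gene with models of different lengths, and the TPM of a short copy is large for few reads. The Rpl41 copies, for example, had 1986 and 345.6 TPM from 9212 and 6652 counts. The part of such copies, or of the narrower spread of the families, in the lower rho between replicates was not tested.

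The files also give a posterior SD of each gene's count, which measures the uncertainty of dividing reads within a library. It exceeded 3 times the counting error in at least 1 replicate for 5 members. Rps27 reached 2.29 and 5.02 times the counting error, Rpl23a 1.40 and 3.83 times, Rpl24 2.94 and 3.78 times, Rpl19 1.75 and 3.60 times, and Rpl10 3.06 and 2.43 times. The next 3 were Rpl7a, at 2.86 and 2.07 times, Rpl11, at 2.12 and 2.63 times, and Rps6, the S6 kinase substrate, at 2.55 and 2.40 times. For Rpl5 the posterior SD stayed below 3 times the counting error, although its copy was identical.

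The 19 genes linked to Diamond-Blackfan anemia had medians of 852.8 and 1086 TPM, against 1075 and 1130 TPM for the 58 other core genes. Rps19, the gene most often mutated in the disease, had 976.5 and 1855 TPM. Rps26 was given above, while Rps24 had 3028 and 1711 TPM and Rps10 had 1716 and 2341 TPM. These 4 genes stood above those that follow in both replicates. Rps28 had 838.0 and 781.9 TPM, Rps29 had 478.7 and 1086 TPM, Rps15a had 406.6 and 450.3 TPM, Rps27 had 476.5 and 185.9 TPM, and Rps7 had 234.1 and 325.5 TPM.

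Of the 60S genes linked to the disease, Rpl26 was given above and Rpl18 had 1355 and 2443 TPM. Rpl11, which joins Rpl5 and 5S RNA in the particle that restrains Mdm2, had 1133 and 1590 TPM, and Rpl35a had 1017 and 1213 TPM. Rpl11 thus stood 17.0-fold above Rpl5 in replicate 1 and 48.9-fold in replicate 2, whereas their families had 2487 and 3164 TPM for Rpl11 and 3127 and 1823 TPM for Rpl5. The genes Rpl31 (852.8 and 636.3 TPM), Rpl35 (510.2 and 738.1 TPM), Rpl15 (480.7 and 575.7 TPM) and Rpl27 were lower. Copies held over 50% of the family's counts for 7 of the 19, and their families had medians of 2056 and 2217 TPM.

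The 8 paralogs separated into 5 above 60 TPM in each replicate and 3 below 1 TPM. Rpl36al, whose protein is identical to that of Rpl36a although 39 coding bases differ, had 625.9 and 539.0 TPM, which was 12.4% and 14.7% of the pair's sum. Rps27l, whose human counterpart is a p53 target and whose protein differs from S27 at 3 of 84 residues, had 489.4 and 355.2 TPM. Rpl7l1, with 40.7% protein identity to Rpl7, had 89.9 and 101 TPM. Rpl22l1, with 70.3% protein identity to Rpl22, had 88.1 and 64.1 TPM, or 3.88% and 4.31% of the pair. Identities were computed by translating the GENCODE M21 coding sequences.

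Rps27 and Rps27rt, with identical coding sequences, moved in opposite directions between the replicates. Rps27 had 476.5 and 185.9 TPM, and Rps27rt had 617.5 and 1642 TPM. Rps27rt made up 56.4% of the pair's sum in replicate 1 and 89.8% in replicate 2, and the sum was 1094 and 1828 TPM. The pair shares every coding base, so the reads of their coding sequence cannot be told apart.

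The paralogs with specialised sites of expression stood below 1 TPM. Rpl3l, which replaces Rpl3 in heart and skeletal muscle, had 0.15 and 0.18 TPM from 9 and 14 counts, while Rpl3, at the peptidyl transferase centre, had 679.1 and 1008 TPM. Rpl10l and Rpl39l, which are expressed in male germ cells, were listed at 0 in both replicates. At this depth their levels were not detectable, with the limits given above.

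Transcript values show which annotated structures carried each gene's reads. Of 62 members with at least 2 listed transcripts, 48 were led by the same protein-coding transcript in both replicates. A median of 98.9% of a core gene's TPM was on protein-coding transcripts in both replicates, and 58 of 77 core genes had at least 90% there in both. Rps24, for example, was carried by Rps24-202 at 2450 and 1526 TPM and Rps24-201 at 578.7 and 184.8 TPM, both coding.

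In 8 core genes the leading transcript was annotated as non-coding in both replicates. Rps20-201, a retained-intron model, carried 92.9% and 87.9% of Rps20 TPM. Rpl23-204, a processed transcript without an assigned coding sequence, carried 84.7% and 83.4% of Rpl23 TPM, at 2519 and 1335 TPM. Rpl35 had 1.49% and 1.72% of its TPM on coding transcripts, and its processed transcript Rpl35-203 led with 359.4 and 443.0 TPM. Rpl11-207, also a processed transcript, carried 67.2% and 47.4% of Rpl11 TPM, ahead of the coding Rpl11-210 at 184.0 and 478.6 TPM.

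A further 3 of the 8 were among the lowest core genes. Retained-intron models carried 64.0% and 64.8% of Rpl5 TPM, 63.0% and 64.2% of Rpl12 TPM, and 45.9% and 46.3% of Rpl21 TPM. Spliced copies hold no introns, and in these 3 genes copies held 83.5% or more of the family's counts in each replicate. In Rps20, also led by a retained-intron model, copies held 0.06% and 0.05%. A link between the copies and the retained-intron shares was not tested. Rps19 and Rpl24 were led by a non-coding model in replicate 1 and by a coding one in replicate 2. For Rpl13a, 10 of the 11 listed transcripts had no match in the newer annotation, so their class was unknown and Rpl13a was not among the 8. In the coding shares, transcripts without a class counted as not protein coding, which put Rpl13a at 13.0% and 25.4%.

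**Figure D4:**
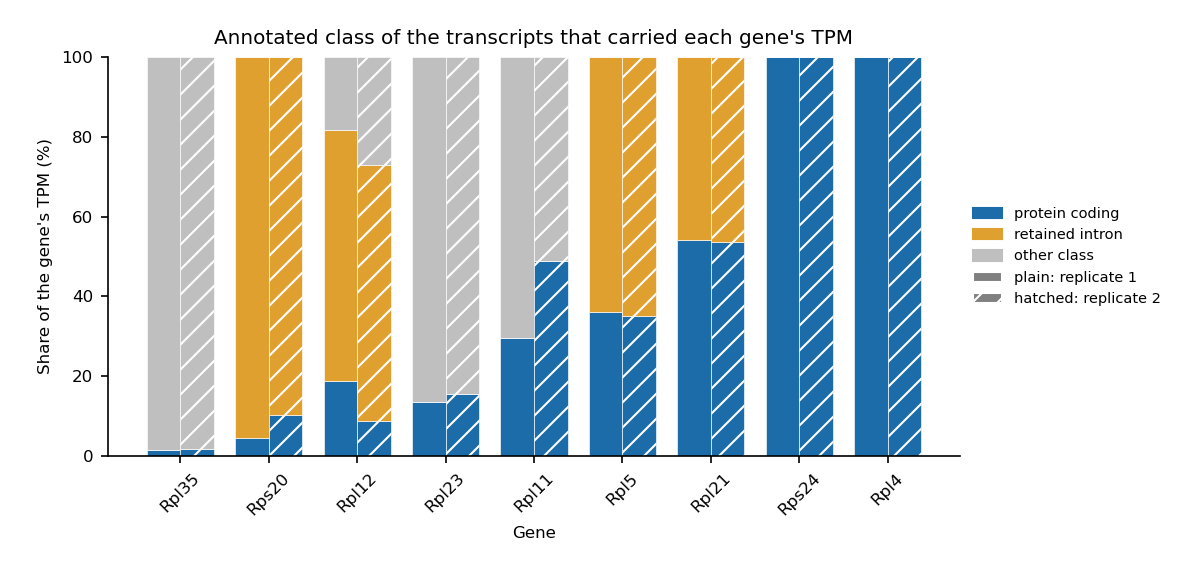
Share of each gene's TPM on protein-coding (blue), retained-intron (orange) and other transcripts (grey) in replicate 1 (plain) and replicate 2 (hatched), for 7 of the 8 core genes led by a non-coding model and for Rps24 and Rpl4. Coding shares ran from 1.49% and 1.72% in Rpl35 to nearly all of Rps24 and Rpl4.

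Between replicates, core genes were on the whole lower in replicate 1. Their median log2 ratio of replicate 1 over replicate 2 was -0.40, with 26 genes higher and 51 lower in replicate 1, against -0.02 over all 15251 genes tested, -0.07 over protein-coding genes and -0.10 over the mitochondrial ribosomal protein genes. The 40S and 60S genes had medians of -0.44 and -0.39, and the genes linked to Diamond-Blackfan anemia -0.44. Among the 6 paralogs tested, 3 were higher and 3 lower in replicate 1. Removing the trend of the ratio with GC content over all genes brought the core median to -0.11. Across the 77 core genes, which share both libraries, the ratio was lower at higher GC content (Spearman's rho -0.55). The core genes had a median GC content of 51.8%, against 50.8% for the protein-coding genes tested.

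An exact binomial test of expected counts with Benjamini-Hochberg adjustment compared the reads of these 2 libraries, not conditions. Of 83 members tested, 9 were called at an adjusted p under 0.05 with at least a 2-fold difference, or 10.8%, against 19.7% of all genes. Higher in replicate 1 were 3, where 12.1% of all genes were called, and lower in replicate 1 were 6, where 7.63% of all genes were called. Counted over both directions, the members' share was thus below that of all genes. It was also below the 15.7% of protein-coding genes but above the 9.09% of the mitochondrial ribosomal protein genes. Lower in replicate 1, the 6 of 83 stood near the share of all genes. With counts of this size, 80 of the 83 passed the adjusted p alone, so the fold limit set the calls. Under the biological coefficient of variation of 0.42 that the 2 libraries gave, edgeR's exact test called 0 members, 0 at an unadjusted p under 0.05, and 150 genes in all, or 0.984%. That coefficient came from the same 2 libraries, so the difference under test was itself counted as noise. The 0 calls therefore cannot decide whether the members differ.

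Rps3a1, Rps27 and Rpl5 were the 3 higher in replicate 1. Rps3a1, a 40S gene, had 2389 and 932.3 TPM from 102692 and 51198 counts, a log2 ratio of 1.36 with a counting SE of 0.01. Rps27 had 4633 and 2309 counts and a log2 ratio of 1.36 ± 0.04 (counting SE). Rpl5 had a log2 ratio of 1.11 ± 0.04 (counting SE), with an adjusted p of 2.16e-181 by the binomial test. Summed with their copies, Rps3a1 and Rps27 were called at 1.00 and 1.36, while the Rpl5 family, at 0.78, was not. As a member, Rps27rt was no copy, so the Rps27 family left it out despite its identical coding sequence. Rps27rt had 9276 and 31511 counts, against 4648 and 2331 for the Rps27 family. The pair was not tested as a sum.

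Rps27rt, Rps18, Rpl10a, Rpl36, Rps29 and Rplp2 were the 6 lower in replicate 1. Rps27rt had a log2 ratio of -1.40, the largest difference of any member. Rps18, of the 40S head, had 305.2 and 751.3 TPM and a ratio of -1.27, and Rpl10a had 374.0 and 947.7 TPM and a ratio of -1.26. The copies of Rps18 were lower in replicate 1 too, though less so than the gene, with 47988.5 and 90934.8 counts. Those of Rpl10a were not lower, with 69613.5 and 63230.3 counts. The families had ratios of -0.68 for Rps18 and 0.02 for Rpl10a. For the 3 other genes the family ratio was as large as that of the gene or larger. Rpl36 had 716.9 and 1694 TPM and ratios of -1.23 for the gene and -1.24 for the family, Rps29 had -1.17 and -1.65, and Rplp2, with no copy by the definition used, had -1.14 in both. Summing with copies also brought calls for Rplp0, at -0.85 for the gene and -1.02 for the family, and Rpl29, at -0.97 and -1.23. In all 8 members were called as families, or 9.64%, against 19.3% of all genes in that setting.

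With the GC trend removed, 4 members were called, or 4.82%, against 7.78% of all genes in that setting. They were 3 of the 9, Rps27, Rps3a1 and Rps27rt, and Rpl23, which had a ratio of 0.89 before removal and 1.24 after it. Rpl36, whose leading transcript had a GC content of 60.8%, had a ratio of -0.40 there, and Rpl5, at 40.4% GC, one of 0.07. The leading transcript was the retained-intron model Rpl5-205 for Rpl5 and the processed transcript Rpl23-204 for Rpl23. The GC values of these 2 genes are thus not those of a coding transcript, and their ratios after removal depend on that choice.

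**Figure D5:**
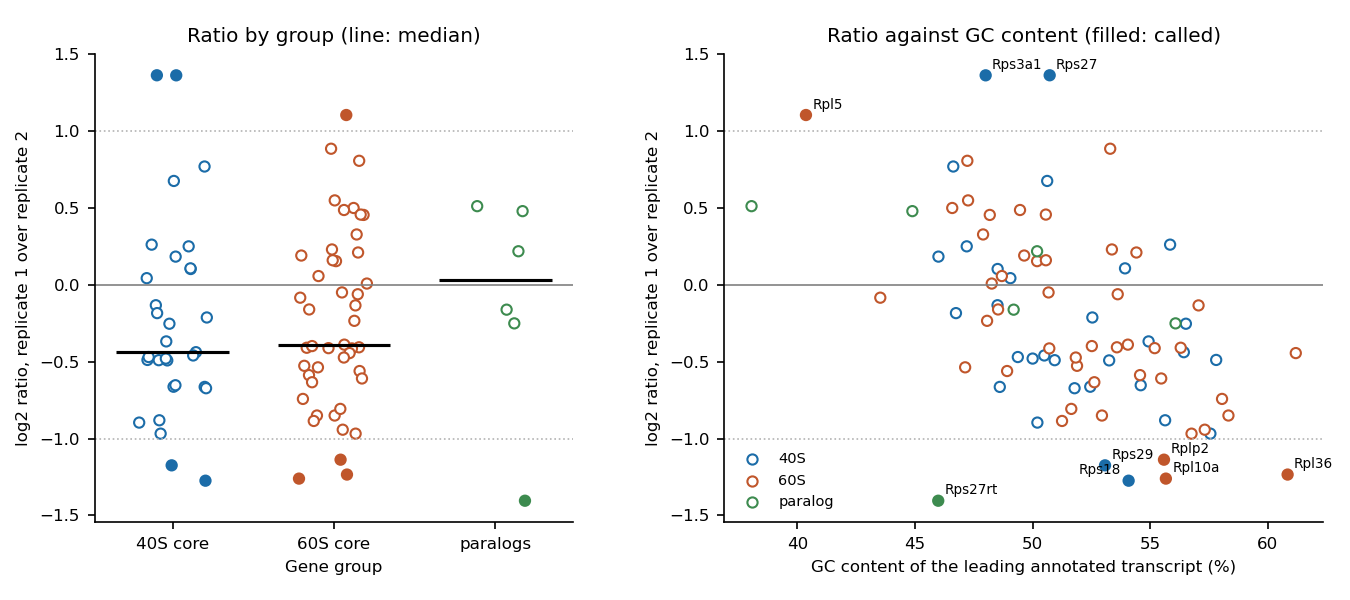
Log2 ratio of expected counts, replicate 1 over replicate 2, for the 83 tested members, by group with the median as a black line (left), and against the GC content of the leading annotated transcript (right). Filled points are the 9 called members and dotted lines mark a 2-fold difference. Rpl36, with a GC-rich leading transcript, lies at -1.23. Rpl5, whose GC-poor leading transcript is a retained-intron model, lies at 1.11.

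The promoters of these genes could be compared with those of all protein-coding genes through RefSeq sequences on GRCm38.p6, which were matched for 57 of 77 core genes. A run of at least 7 pyrimidines that starts with C lay within 50 bases of the start of 86.0% of these core genes, against 44.5% of 16317 protein-coding genes. The letters CTTTC, searched on the transcribed strand in the same window and able to lie inside such a run, were found in 54.4% against 13.1%. CCGGAA, the core of sites for ETS factors, on either strand from 250 bases before to 50 after the start, was found in 56.1% against 21.7%. The shares for GGGCGG were 61.4% against 51.4%, and those for TATAAA 10.5% against 14.1%. The pyrimidine run was also found in 87.5% of the 8 paralogs, a share close to that of the core genes. A match describes letters and not a site in use.

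The start regions of members that differ in level are shown from 60 bases before to 30 bases from the start, with the longest C-started pyrimidine run in capitals. The windows are chr3:90213619-90213708 on the minus strand for Rps27, chr9:114982710-114982799 on the minus strand for Rps27rt, chr9:64173327-64173416 on the plus strand for Rpl4, chr5:107900468-107900557 on the plus strand for Rpl5 and chr17:24727766-24727855 on the plus strand for Rpl3l.
Rps27: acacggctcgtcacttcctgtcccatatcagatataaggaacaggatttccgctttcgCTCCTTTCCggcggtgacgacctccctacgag
Rps27rt: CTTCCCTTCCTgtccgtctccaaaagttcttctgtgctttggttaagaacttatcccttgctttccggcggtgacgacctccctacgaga
Rpl4: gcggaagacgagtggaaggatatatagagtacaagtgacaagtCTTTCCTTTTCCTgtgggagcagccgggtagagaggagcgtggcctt
Rpl5: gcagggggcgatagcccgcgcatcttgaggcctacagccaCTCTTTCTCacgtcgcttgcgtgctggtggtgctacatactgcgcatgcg
Rpl3l: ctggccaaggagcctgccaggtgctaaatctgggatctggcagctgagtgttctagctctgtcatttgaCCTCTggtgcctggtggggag
The run measured 9 bases in Rps27 and reached across the start, 13 bases in Rpl4, 9 bases in Rpl5 and 5 bases in Rpl3l. Within 50 bases on either side of the start, Rpl3l also holds a run of 9 bases, which lies beyond the stretch shown. In Rps27rt the longest run, of 11 bases, lay at the far upstream end of the window. Rpl5, one of the lowest core genes by TPM, thus had a run of the same length as Rps27.

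Other ribosomal proteins are encoded under other symbols. Rack1, the 40S scaffold, had 1593 and 3464 TPM, and Fau, a fusion that releases S30, had 113 and 180 TPM. Rack1 was called lower in replicate 1. All 16 listed genes for chaperones and assembly partners of ribosomal proteins were above 1 TPM in both replicates. Npm1, a nucleolar chaperone, led with 5795 and 2425 TPM and was called higher in replicate 1, as was Nap1l1, a histone and ribosomal protein chaperone, with 1306 and 400.9 TPM. None of the 16 was called lower there, where 7.63% of all genes were. The 2 called higher compare with 12.1% of all genes, and the list was not tested as a set. Tsr2, which escorts Rps26 and is itself linked to Diamond-Blackfan anemia, had 107 and 108 TPM, and Heatr3, which imports Rpl5, had 63.1 and 45.5 TPM.

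The 14 listed genes of translational control of these mRNAs were all above 1 TPM. Larp1, which binds the oligopyrimidine tract, had 149 and 152 TPM, and Mtor had 17.0 and 27.3 TPM. In this list Ssb, which encodes the La protein, and the S6 kinase gene Rps6kb1 were called higher in replicate 1, and Eif4ebp2, a repressor of cap binding, lower. Ssb had 853.9 and 272.4 TPM. Of the 9 genes listed for ribosome surveillance, Trp53, which encodes p53, had 92.2 and 161 TPM and Mdm2, its ubiquitin ligase, had 45.4 and 31.4 TPM. Trp53 and Zfp598, which marks collided ribosomes, were called lower in replicate 1, and Mdm4 and Usp16 higher. Over all genes 19.7% were called in either direction, and neither list was tested as a set.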

How the data were processed

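Polyadenylated RNA of MEL cells was measured in 2 libraries by single-end sequencing. The authors deposited, per gene and transcript, expected counts, TPM, FPKM and posterior values, quantified on mm10 with GENCODE M4 per the file headers. The files also hold percent values deposited by the authors for each transcript's part of its gene, but shares were computed here from TPM. Neither aligner, quantifier nor strand setting is given in the sources used here. Values of members with an overlapping gene on the other strand are therefore uncertain; for 9 members that gene reached 10 TPM in both replicates. The deposited score column used here is the posterior SD of the count. TPM also covers short features that took 2.93% and 6.24% of it, and it was not rescaled.

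GENCODE M21, also on mm10, gave symbols, classes, positions and transcript sequences by identifier without version. GC content is that of the leading annotated transcript by mean TPM, coding or not, and was known for 99.4% of tested genes. The members and lists were chosen with earlier results of these data known. The gene Rps4l matched the symbol pattern but was annotated as a pseudogene and is no member. Copies were found with blastn. Values of some single members and listed genes are not reported here.

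Expected counts were rounded, genes under 20 counts in sum were dropped, and the libraries were set against each other by an exact conditional binomial test, two-sided, with TMM-scaled sizes (edgeR 4.0.16) and Benjamini-Hochberg adjustment over all genes, at an adjusted p under 0.05 and 2-fold. Log2 ratios used a prior count of 0.5, and the GC trend was fitted by lowess at a fraction of 0.3. In simulated counts for this comparison over 15075 genes, calls fell on 90 of 100 genes with a true 3-fold difference, on 97 of 100 with a 5-fold one and on 2 of the 14875 without any. The simulated counts held counting error alone, so these rates do not cover other spread between libraries or the division of reads. P-values cover counting error only. Genes named are every paralog and gene linked to Diamond-Blackfan anemia, the stalk genes, the 10 highest and 10 lowest core genes, up to 6 called in each direction, the listed partners, core genes led by a non-coding transcript, up to 8 with the largest posterior SD relative to counting error, and genes whose sequence is printed. Copies, parents of paralogs and other genes named fall outside this rule and were chosen after their values were seen.

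Alternatives were FPKM, posterior mean TPM, shares of counts, other minimums, DESeq2 1.42.0 size factors, library totals, trends with GC content or length removed, edgeR's exact test, each replicate left out, and families with copies. Software was R 4.3.3, Python 3.11.15, pandas 2.3.3, scipy 1.17.1, statsmodels 0.14.6 and Biopython 1.88.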

Additional observations from a re-analysis of the deposited data

How the results depend on the processing

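In 35 of 51 alternatives a count stayed within 1.5-fold of its main value, or another result moved by less than its spread. DESeq2 size factors and library totals for the median ratio were among them. For the share of TPM, leaving out 1 replicate could not move the value beyond its spread, which came from the same 2 replicates. The count of called members, 9, became 14 with library totals, 30 at 1.5-fold, 4 with the GC trend removed and 0 with edgeR's exact test. That last test took its noise from the same 2 libraries it compared. The median log2 ratio of core genes, -0.40, was -0.11 with the GC trend removed. The members' share of TPM, 10.8%, was 4.76% as a share of expected counts and 17.1% with copies. The core median, 1115 TPM, was 792.0 as FPKM, 2103 with copies and 1920 in core genes without copies. The paralog median, 85.8 TPM, was 60.6 as FPKM and 422 without members under 1 TPM. The median of the genes linked to Diamond-Blackfan anemia, 809.9 TPM over means of the replicates, was 572.4 as FPKM and 2413 with copies. The FPKM values differ in scale from TPM by construction.

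With each replicate left out, the share ran from 9.86% to 11.7%, the core median from 976.5 to 1119 TPM, the paralog median from 82.5 to 89.0 TPM and the median of the genes linked to Diamond-Blackfan anemia from 852.8 to 1086 TPM. Leaving out replicate 1 or 2 leaves no contrast, so the ratio and the calls have no such values. The family sums, the length trend for the calls and the median of the 5 core genes without copies were chosen after seeing the data. No paired analysis was possible because the series holds 1 group. Depth was no limit for core genes, with at least 1304 counts each, whereas how reads divide between genes and copies could not be settled from these files.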

Other observations

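Core ribosomal protein genes lay on 19 chromosomes, with 14 on chromosome 7 and 4 on the X chromosome. Annotated small nucleolar RNAs, which guide modification of ribosomal RNA and are cut from introns, lay inside 30 of them, 59 in all. In these polyadenylated libraries 42 of the nested RNAs stood at 1 TPM or more in both replicates, on few counts each. Snord100, inside Rps12, had 163 and 135 counts, and Snora65, inside Rpl12, had 256 and 354 counts, against 3221 and 5498 counts for Rpl12 itself.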
